A study of Saccharomyces cerevisiae with 12 samples.

Results

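Transcript levels of 10 pheromone signalling and response genes of budding yeast (Saccharomyces cerevisiae) were followed in wild-type cells and in cells carrying one of a pair of proteasome alleles. The genes were GPA1, SST2, FUS3, FAR1, STE12, KAR4, MSB2, FUS1, FIG1 and FIG2. They were chosen by name, with earlier results of these data known, from 5585 protein-coding genes in the count table. All 10 genes passed the filter on low counts, with FIG1 the lowest at 8 to 64 counts per library and MSB2 the highest at up to 12384.

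In haploid yeast, pheromone of the opposite mating type binds a receptor on the cell surface and frees the G protein beta-gamma dimer from the alpha subunit Gpa1. The dimer starts a kinase cascade that ends in the mitogen-activated protein (MAP) kinase Fus3, which acts on the cell-cycle inhibitor Far1 and on the transcription factor Ste12. Ste12 binds pheromone response elements and turns on genes for arrest, cell fusion, nuclear fusion and feedback, among them its own gene and FUS3, FAR1, KAR4, FUS1, SST2 and GPA1. Upper kinases of the cascade also serve filamentous growth, in which the mucin-like sensor Msb2, the MAP kinase Kss1 and the Ste12 partner Tec1 take part.

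The study had 3 groups of 4 libraries, which the series' design calls biological replicates. WT cells were MATa with his3Δ1, leu2Δ0, met15Δ0 and ura3Δ0, and the names of replicates 3 and 4 also give By4741. Both mutants were labelled with those markers plus lys2Δ0 and a can1Δ::LEU2-MFA1pr::His3 cassette, and then either pup2-ts::URA3 or rpn5-ts::URA3, so that proteasome allele, URA3, lys2 and the cassette cannot be told apart as sources of any difference from WT, nor, for pup2-ts, can the MET17 reads given with the libraries. PUP2 encodes a subunit of the proteasome core particle and RPN5 a lid subunit of the regulatory particle, and ts is the usual suffix of a temperature-sensitive allele. All cultures grew in YPD to an optical density near 0.5 with no treatment named in the labels and no temperature given there. No pheromone is named for any group, so these are levels in cells growing without it as far as the labels say.

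Gene totals ran from 18.5 to 60.6, in units of 1e6 counts. The auxotrophy markers went against a label in the library labelled rpn5-ts replicate 1, where LYS2 stood at 213 CPM (counts per 1e6 gene counts, TMM scaled) against at most 0.181 in rpn5-ts replicates 2 to 4, and MET17, the gene deleted by met15Δ0, at 249 CPM against at most 0.0906. MET17 was also present in all 4 pup2-ts libraries, at 196 to 587 CPM, against at most 0.0931 in WT, so that MET17 also differs between pup2-ts and WT and between pup2-ts and rpn5-ts replicates 2 to 4. Its part in the results was not tested. PUP2 averaged 195, 251 and 426 CPM and RPN5 348, 743 and 512 in the WT, pup2-ts and rpn5-ts groups, levels that do not check a ts allele. URA3 followed the labels, at 3.63 to 4.66 CPM in WT and 81.8 to 125 in the mutants. Replicates 3 and 4 of each group have the word DNAse in their names and replicates 1 and 2 do not, and results are given for both pairs. The summed level of 6 a-cell markers was 1185 to 1696 CPM in WT, 682 to 1122 in pup2-ts and 754 to 950.6 in rpn5-ts. The summed level of 4 alpha-cell markers was 43.7 to 61.2, 38.4 to 50.5 and 48.0 to 56.3 CPM. Of these, the alpha-factor genes MF(ALPHA)1 and MF(ALPHA)2 stayed between 0 and 2.70 CPM in every library, as for MATa cells. The other alpha-cell markers, STE3 and SAG1, made up most of each sum and do not bear out the label in that way.

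The sequences before these genes are shown because Ste12 sites are what the pathway's targets share. They were searched on both strands at 9 of the 10 genes, leaving out STE12. In the 300 bases before each start codon, the pheromone response element TGAAACA was found at 4 of the 9 genes, against 7.2% of 6001 R64 promoters, and at least 2 copies at FUS1, FUS3 and KAR4, against 0.367%. These windows overlap the transcribed interval of the count table, by 296 bases at FIG2, 256 at MSB2, 182 at FIG1 and 6 to 86 at the other 6 genes. Taken in the 300 bases before the start of the transcribed interval, a window chosen after the first had been examined, the element was found at 6 of 9 genes against 7.56% of 5585 promoters. At least 2 copies were found at 5 of 9 genes against 0.466%. GPA1, FAR1 and FIG1 had no exact match in either window. Variants of the element were not searched or counted. TGAAACG, which differs in the last base, is present on either strand before the transcribed intervals of FAR1 and FIG1. It also stands in lower case in the FUS1 and SST2 sequences below. The sequences below are from the RefSeq R64 genome, written 5′ to 3′ on the gene's strand, with TGAAACA or its reverse complement TGTTTCA in capitals. FUS1 (chrIII:71475-71774, plus strand), KAR4 (chrIII:27623-27922, plus strand) and SST2 (chrXII:1041423-1041722, minus strand) are shown with all 300 bases, as genes with 2, 2 and 1 copies. FIG2 (chrIII:266980-267137, plus strand) is shown only up to the transcribed interval of the neighbouring gene. For MSB2 the 30 bases around each element are given (chrVII:516402-516431 and chrVII:516450-516479, plus strand), both inside the transcribed interval of the neighbour YGR013W. The last line holds the single match of the 9 genes to CATTCC before the start codon, the site of Tec1, with the site in capitals (chrVII:516826-516855, plus strand). It lies 105 bases before the MSB2 start codon and inside the MSB2 transcribed interval, and CATTCC was found in 10.2% of promoters in that window. A match is a description of these letters and was not tested for binding.
FUS1: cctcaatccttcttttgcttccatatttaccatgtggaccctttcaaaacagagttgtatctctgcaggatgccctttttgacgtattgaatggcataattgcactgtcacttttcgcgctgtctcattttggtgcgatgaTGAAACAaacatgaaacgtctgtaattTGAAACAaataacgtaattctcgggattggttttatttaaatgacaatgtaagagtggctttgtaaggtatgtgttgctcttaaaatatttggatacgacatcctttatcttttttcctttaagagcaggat
KAR4: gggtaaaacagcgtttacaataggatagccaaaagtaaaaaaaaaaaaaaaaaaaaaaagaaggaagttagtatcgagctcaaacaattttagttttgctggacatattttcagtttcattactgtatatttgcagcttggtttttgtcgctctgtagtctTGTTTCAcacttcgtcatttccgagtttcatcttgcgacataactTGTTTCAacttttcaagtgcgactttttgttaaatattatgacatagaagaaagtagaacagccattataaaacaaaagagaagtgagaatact
SST2: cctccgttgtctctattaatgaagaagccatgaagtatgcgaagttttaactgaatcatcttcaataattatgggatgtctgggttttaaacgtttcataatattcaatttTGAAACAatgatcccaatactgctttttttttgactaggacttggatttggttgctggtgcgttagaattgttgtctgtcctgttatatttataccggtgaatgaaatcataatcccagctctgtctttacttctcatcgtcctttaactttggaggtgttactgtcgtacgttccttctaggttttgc
FIG2: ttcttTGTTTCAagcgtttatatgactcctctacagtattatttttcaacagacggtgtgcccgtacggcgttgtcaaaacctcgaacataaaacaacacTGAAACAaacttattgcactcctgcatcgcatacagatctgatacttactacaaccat
MSB2 element 1: cgcttggggaccTGAAACAgaagggccttg
MSB2 element 2: aaaggctcgctcTGAAACAggcgaagacac
MSB2 Tec1 site: gaaaatattattCATTCCtttaacgactta

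**Figure D1:**
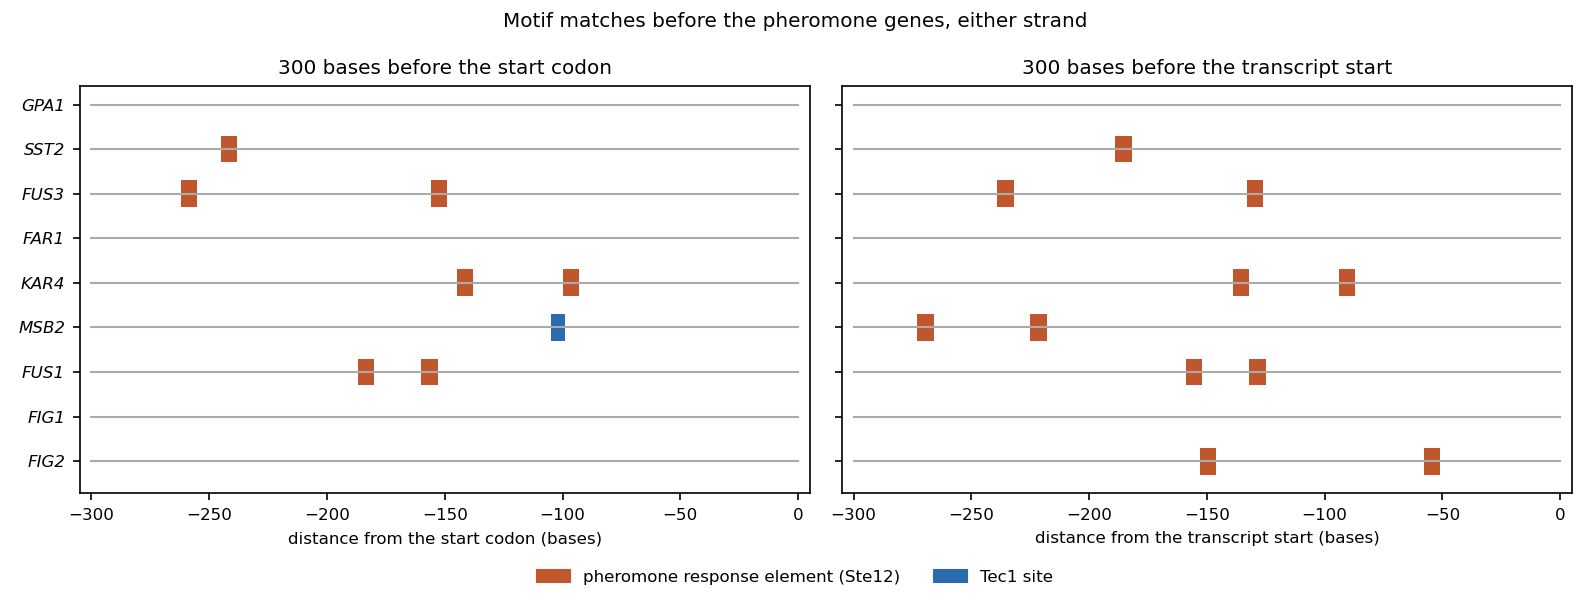
Positions of the response element TGAAACA (orange) and of the Tec1 site CATTCC (blue), on either strand, in the 300 bases before the start codon (left) and before the start of the transcribed interval (right) of each of 9 genes, with distance in bases on the x axis. The left map has elements at 4 genes and the right map at 6.

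Levels among the 10 genes were compared per length, as CPM per kilobase of the transcribed interval in WT. GPA1 was highest at 71.2 ± 7.68 (SD, n = 4), a level at the 67.7 percentile of all genes. FUS3 at 53.5 ± 1.68, SST2 at 49.9 ± 6.58, MSB2 at 43.0 ± 15.3, STE12 at 41.5 ± 3.06, KAR4 at 39.5 ± 12.2 and FAR1 at 35.3 ± 3.47 formed a middle range, and neighbours in that order differed by no more than their spread. The 3 genes of cell fusion and the mating projection were far lower, with FIG2 at 10.5 ± 1.47, FUS1 at 7.62 ± 1.49 and FIG1 at 1.14 ± 0.386 CPM per kilobase, the last at the 0.495 percentile. In CPM, the median coefficient of variation of the 10 genes in WT, pup2-ts and rpn5-ts was 13.6%, 20.8% and 21.4%, beside 15.6%, 15.3% and 15.3% over all genes.

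**Figure D2:**
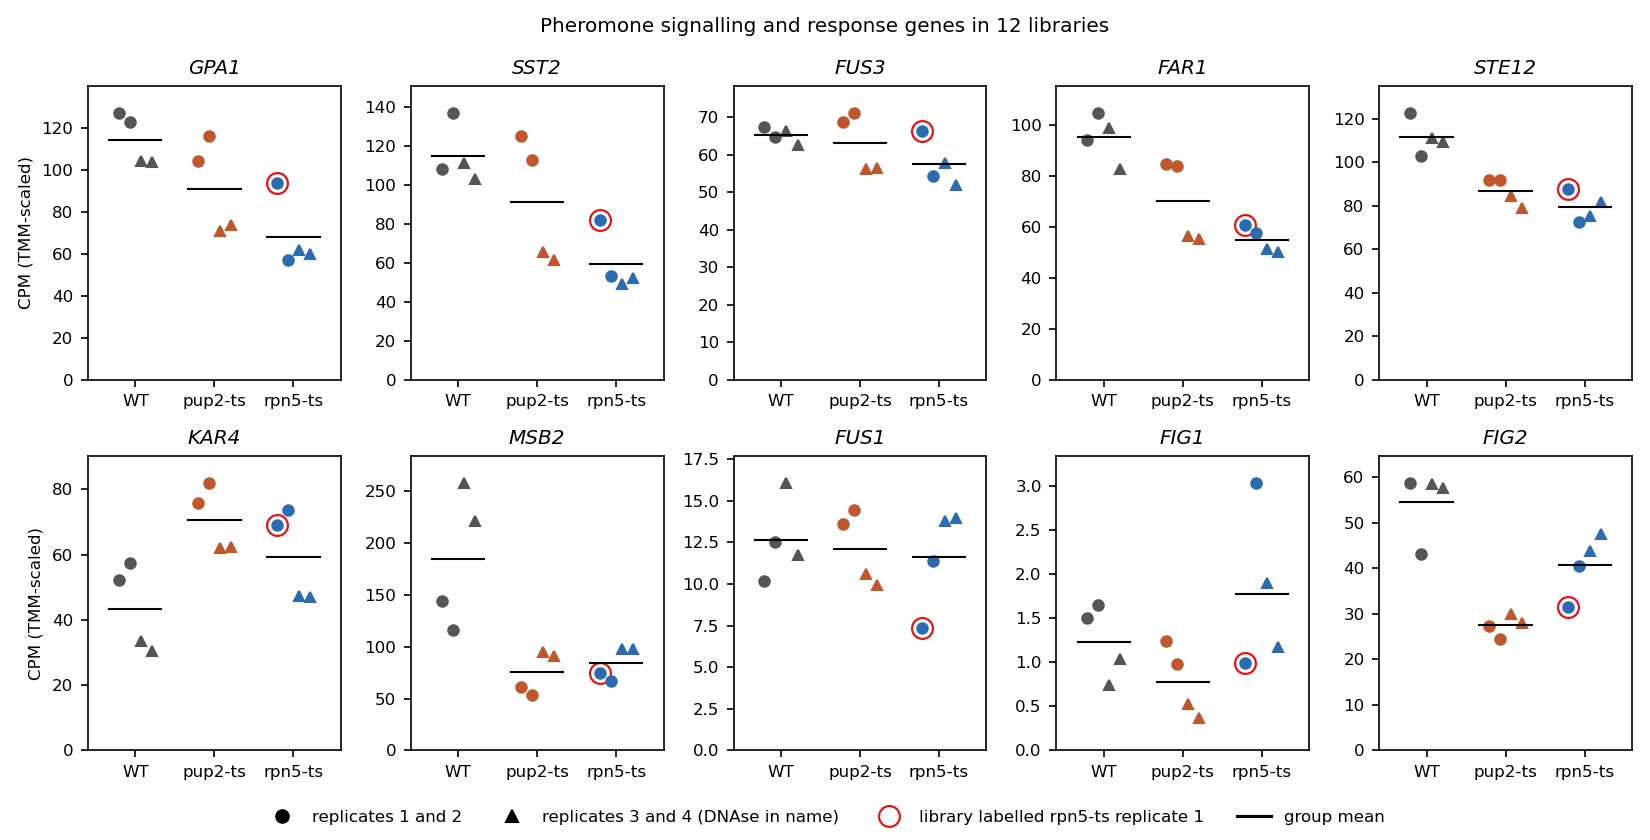
TMM-scaled CPM of the 10 genes in each library by group, with circles for replicates 1 and 2, triangles for replicates 3 and 4, a red ring on the library labelled rpn5-ts replicate 1 and a black line at each group mean. MSB2 and STE12 lie below WT in every library of both mutants, and KAR4 lies above WT in every pup2-ts library.

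In pup2-ts against WT, FIG2, MSB2 and STE12 fell and no gene of the 10 rose (edgeR quasi-likelihood F test, adjusted p under 0.05). These 3 of 10 stood beside 15.4% of 5560 genes called in either direction, 8.72% called higher and 6.65% called lower. In rpn5-ts against WT, FAR1, STE12, MSB2, SST2 and GPA1 fell and none rose, 5 of 10 beside 13.7% of genes called in either direction, 8.27% higher and 5.4% lower. Without the library labelled rpn5-ts replicate 1, the same 5 genes were called lower in rpn5-ts, beside 16.9% of genes called and 6.49% called lower, and the same 3 genes in pup2-ts, beside 15.7% called. The median log2 fold change of the 10 was −0.35 in pup2-ts and −0.46 in rpn5-ts, beside −0.02 over all genes in each. Both comparisons use the same WT libraries. In bulk RNA, fewer cells of a kind and less RNA per cell cannot be told apart. A block for the replicate number gave 5 called genes in pup2-ts beside 38.5% of all genes, and 7 in rpn5-ts beside 40.6%. The added calls were FAR1 lower and KAR4 higher in pup2-ts, and FIG2 lower and KAR4 higher in rpn5-ts. Leaving out the library labelled rpn5-ts replicate 1 as well, a fit chosen after seeing the data, gave 6 beside 41.3% of genes and 8 beside 41.5%, and 2 between the mutants (FIG1 and FIG2, higher in rpn5-ts) beside 6.67%.

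MSB2 (YGR014W, chrVII:516687-520990), the signalling mucin of the filamentous branch, showed the largest difference from WT of the 10 in both mutants with all 12 libraries, while SST2 in rpn5-ts had a larger one (−1.15 against −1.08) once the library labelled rpn5-ts replicate 1 was left out. It stood at 144, 116, 258 and 222 CPM in WT replicates 1 to 4. In pup2-ts it stood at 61.4, 53.8, 95.1 and 90.5 CPM, and in rpn5-ts at 74.5, 66.9, 98.2 and 97.8. Every mutant library was below every WT library, and in each group replicates 3 and 4 were above replicates 1 and 2. The level fell 2.46-fold in pup2-ts (log2 fold change −1.30 ± 0.27 (SE), adjusted p = 0.0080) and 2.19-fold in rpn5-ts (−1.13 ± 0.27, adjusted p = 0.018). Without the library labelled rpn5-ts replicate 1 the latter was −1.08 (adjusted p = 0.038). In replicates 1 and 2 the 2 differences were −1.17 and −0.86, and in replicates 3 and 4 they were −1.36 and −1.28. The rpn5-ts call was lost without WT replicate 4 or without rpn5-ts replicate 2, with adjusted p up to 0.058.

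STE12 (YHR084W, chrVIII:273857-276544), the transcription factor of the response, stood at 123, 103, 111 and 109.5 CPM in WT. It stood at 91.9, 92.0, 84.4 and 79.2 CPM in pup2-ts and at 87.5, 72.6, 75.2 and 81.6 in rpn5-ts. All 8 mutant libraries were below all WT libraries. The fall was 1.28-fold in pup2-ts (log2 fold change −0.36 ± 0.09, adjusted p = 0.022) and 1.41-fold in rpn5-ts (−0.49 ± 0.09, adjusted p = 0.0051), and −0.55 (adjusted p = 0.0042) without the library labelled rpn5-ts replicate 1. The pup2-ts call was lost without pup2-ts replicate 3 or 4, with adjusted p up to 0.075. It was also lost when all annotated features were scaled together, at −0.21 (adjusted p = 0.16), a scaling that moved the median of all genes by 0.149. In replicates 1 and 2 alone, STE12 was called in neither mutant (adjusted p = 0.19 in pup2-ts and 0.056 in rpn5-ts).

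KAR4 (YCL055W, chrIII:27923-29019), a transcription factor that acts with Ste12 on karyogamy genes, was the one gene with higher levels than WT in all pup2-ts libraries. Its levels were 52.1, 57.3, 33.5 and 30.3 CPM in WT and 75.7, 81.8, 61.9 and 62.2 in pup2-ts. The rpn5-ts libraries held 68.9, 73.7, 47.2 and 47.1 CPM and overlapped WT. The log2 fold change in pup2-ts was 0.70 ± 0.23, 1.63-fold, with an adjusted p of 0.058, and KAR4 was therefore not called. With the replicate block it was called in pup2-ts at 0.74 (adjusted p = 2.1e-04) and in rpn5-ts at 0.47 (adjusted p = 0.0026), beside 0.45 ± 0.23 (adjusted p = 0.22) without the block. Leaving out the library labelled rpn5-ts replicate 1, the rpn5-ts value was 0.37 (adjusted p = 0.32), and 0.46 (adjusted p = 0.0078) with the block. Replicates 3 and 4 were below replicates 1 and 2 in all 3 groups. The pup2-ts value was also past the threshold with DESeq2 (adjusted p = 0.017), with limma-voom (0.049), with all features scaled together (0.0092), and without WT replicate 1 or 2.

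FAR1 (YJL157C, chrX:123679-126374), the inhibitor of the G1 cyclin-dependent kinase, stood at 94.2, 105, 98.8 and 82.7 CPM in WT. In rpn5-ts it stood at 60.7, 57.7, 51.3 and 50.2 CPM, below every WT library, a 1.73-fold fall (log2 fold change −0.79 ± 0.15, adjusted p = 0.0066). Without the library labelled rpn5-ts replicate 1 the value was −0.84 (adjusted p = 0.0090). In pup2-ts it stood at 84.7, 83.7, 56.3 and 55.4 CPM, with replicates 1 and 2 inside the WT range and replicates 3 and 4 below it. That difference was −0.44 ± 0.15 and was not called (adjusted p = 0.076). With the block it was −0.46 (adjusted p = 0.0056), and it also passed with DESeq2 (0.029) and without pup2-ts replicate 1 or 2.

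SST2 (YLR452C, chrXII:1039119-1041422) and GPA1 (YHR005C, chrVIII:113398-115003), which hold the signal down as the GTPase-activating protein and as the alpha subunit it acts on, had a like pattern. SST2 stood at 109, 137, 111 and 103 CPM in WT and at 82.4, 53.5, 49.4 and 52.4 in rpn5-ts, and GPA1 at 127, 123, 104 and 103 in WT and at 93.8, 57.2, 61.7 and 59.8 in rpn5-ts. All rpn5-ts libraries were below all WT libraries for both genes, and the library labelled rpn5-ts replicate 1 was the highest of its group for both. SST2 fell 1.94-fold (log2 fold change −0.95 ± 0.25, adjusted p = 0.025) and GPA1 1.68-fold (−0.75 ± 0.20, adjusted p = 0.028). Without that library the values were −1.15 (adjusted p = 0.011) and −0.94 (adjusted p = 0.0061), and the other 3 libraries stood at 51.8 ± 2.14 and 59.6 ± 2.27 CPM (SD, n = 3). The SST2 call was lost without WT replicate 2 or any 1 of rpn5-ts replicates 2 to 4, with adjusted p up to 0.080. The GPA1 call was lost without WT replicate 1 or 2 or any 1 of rpn5-ts replicates 2 to 4, with adjusted p up to 0.086. In pup2-ts, SST2 stood at 125, 113, 65.5 and 61.7 CPM and GPA1 at 104, 116, 70.6 and 73.5, and neither was called (−0.33 ± 0.24, adjusted p = 0.42, and −0.33 ± 0.20, adjusted p = 0.31). With the form of name as a term GPA1 was called lower in pup2-ts, beside 2371 of 5560 genes. It was also called lower with the block without the library labelled rpn5-ts replicate 1, beside 41.3% of genes. In replicates 3 and 4 alone both genes were called lower in pup2-ts, beside 3651 of 5556 genes.

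FIG2 (YCR089W, chrIII:267138-272322), a cell wall adhesin of mating cells, stood at 58.7, 43.1, 58.5 and 57.6 CPM in WT. In pup2-ts it stood at 27.3, 24.4, 29.999 and 28.1 CPM, all below WT, a 1.98-fold fall (log2 fold change −0.99 ± 0.14, adjusted p = 7.1e-04). The call held with each of the 12 libraries left out in turn, and the difference was −0.97 in replicates 1 and 2 and −0.99 in replicates 3 and 4. In rpn5-ts it stood at 31.5, 40.6, 43.7 and 47.6 CPM and overlapped WT through WT replicate 2. That difference was −0.42 ± 0.14 (adjusted p = 0.073, and 0.016 with the block), and −0.31 (adjusted p = 0.12) without the library labelled rpn5-ts replicate 1. The rpn5-ts difference passed the test without WT replicate 2 (adjusted p = 0.034).

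The other 3 genes did not pass the test in either mutant. FUS3 (YBL016W), the MAP kinase of the response, ranged from 62.7 to 67.4 CPM in WT, from 56.1 to 71.2 in pup2-ts and from 52.1 to 66.2 in rpn5-ts, with log2 fold changes of −0.05 ± 0.11 (adjusted p = 0.82) and −0.18 ± 0.11 (0.28). FUS1 (YCL027W), a membrane protein of cell fusion and the usual reporter of the pathway, ranged from 10.2 to 16.1, from 9.93 to 14.4 and from 7.34 to 14.0 CPM, with −0.06 ± 0.22 (0.90) and −0.12 ± 0.22 (0.75). FIG1 (YBR040W), a membrane protein of mating, ranged from 0.745 to 1.65, from 0.373 to 1.24 and from 0.991 to 3.03 CPM, with −0.65 ± 0.45 (0.39) and 0.51 ± 0.43 (0.47) and with 8 to 64 counts per library. For all 3 genes the groups overlapped. In replicates 3 and 4 alone, all 10 genes were called in pup2-ts, these 3 lower, beside 3651 of 5556 genes.

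**Figure D3:**
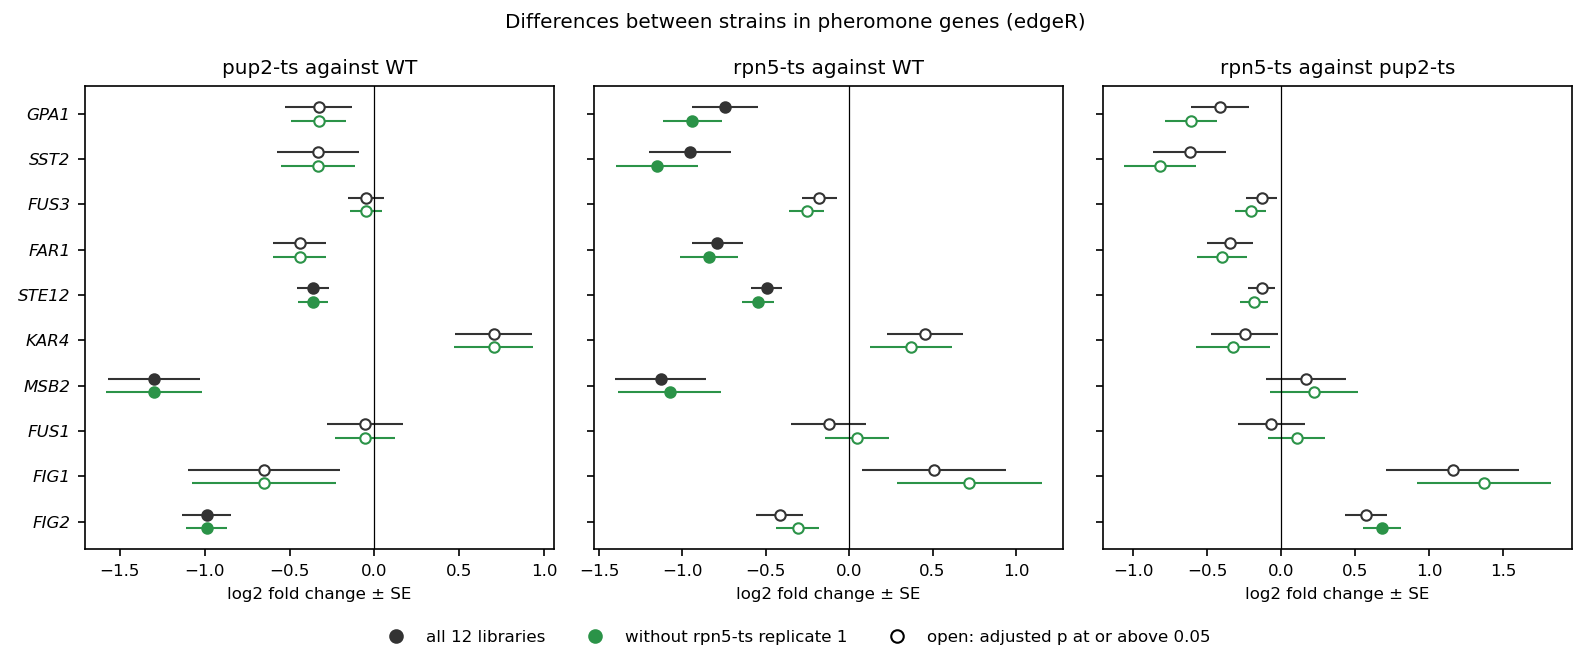
Log2 fold change with its SE for each of the 10 genes in the 3 comparisons, with all 12 libraries (black) or with the library labelled rpn5-ts replicate 1 left out (green); open symbols have an adjusted p of 0.05 or more. STE12 and MSB2 are filled in both comparisons with WT, and with all 12 libraries no gene is filled between the mutants.

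Counted by overlap alone, 4 of the 10 genes (FIG2, STE12, MSB2 and KAR4) had no overlap between pup2-ts and WT, beside 21.8% of all genes. Between rpn5-ts and WT the count was 5 (FAR1, STE12, MSB2, SST2 and GPA1), all lower, beside 19.2% of genes and 8.08% lower. Set directly against each other, the mutants differed at 0 of the 10 genes by edgeR's test, in a comparison that called 0.036% of all genes. DESeq2 and limma-voom also called 0, in fits that called 27 and 2 of 5560 genes. FIG2 was the one gene whose mutant groups did not overlap, higher in rpn5-ts (log2 fold change 0.57 ± 0.14, adjusted p = 0.49), beside 4.64% of genes and 2.32% higher. Without the library labelled rpn5-ts replicate 1, FIG2 was called higher in rpn5-ts at 0.68 (adjusted p = 0.038), beside 0.827% of genes called and 0.539% called higher. The calls that differ between the mutants' comparisons with WT, such as SST2 (rpn5-ts against pup2-ts −0.62 ± 0.25, adjusted p = 0.78), FAR1 (−0.35 ± 0.15, 0.78) and GPA1 (−0.42 ± 0.20, 0.78), are thus not shown to differ between the mutants.

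The form of the sample names went with the levels of 8 of the 10 genes, beside 63.1% of all genes called, 29.2% higher and 34% lower in replicates 3 and 4. With group as a term, replicates 3 and 4 were higher than replicates 1 and 2 for MSB2 (log2 difference 0.68 ± 0.08) and FIG2 (0.23), and lower for FIG1 (−0.75), KAR4 (−0.57 ± 0.07), SST2 (−0.51), GPA1 (−0.40), FAR1 (−0.32) and FUS3 (−0.16). Leaving out single libraries, the FIG1 call was lost for any 1 of 10 (adjusted p up to 0.15), FUS3 for 8 (0.14) and FIG2 for 7 (0.073), and the other 5 were kept. What DNAse in a name stands for beyond the DNAse step named for all samples is not given in the sources used here. The pup2-ts difference from WT was larger in replicates 3 and 4 for several genes. FAR1 was −0.23 in replicates 1 and 2 and −0.68 in replicates 3 and 4, SST2 −0.04 and −0.74, GPA1 −0.18 and −0.52, and KAR4 0.53 and 0.98. FUS1 changed direction, at 0.31 and −0.39. The difference between these differences passed the test for KAR4 alone (0.44 ± 0.11, adjusted p = 0.040), beside 9.41% of genes. It did not pass for FUS1 (−0.73, adjusted p = 0.14), FAR1 (−0.46, 0.051), SST2 (−0.71, 0.10) or GPA1 (−0.34, 0.37). Without the library labelled rpn5-ts replicate 1, whose spread enters the same estimate, it passed for KAR4 (0.029), FAR1 (0.041), SST2 (0.018) and GPA1 (0.0498), beside 16.6% of genes. In that fit FUS1 did not pass (adjusted p = 0.054).

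For rpn5-ts against WT, FAR1 was −0.73 in replicates 1 and 2 and −0.82 in replicates 3 and 4, STE12 −0.47 and −0.48, SST2 −0.83 and −1.06, GPA1 −0.71 and −0.76, FIG2 −0.48 and −0.34, and MSB2 −0.86 and −1.28, the last with a difference of −0.41 ± 0.17 (adjusted p = 0.20). The test of a difference between them called 0 of 10 genes in edgeR, beside 1.67% of genes. In DESeq2 it also called 0, beside 380 of 5560 genes. Without rpn5-ts replicate 2 it called GPA1 in edgeR (−0.40, adjusted p = 0.049), beside 706 of 5562 genes.

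**Figure D4:**
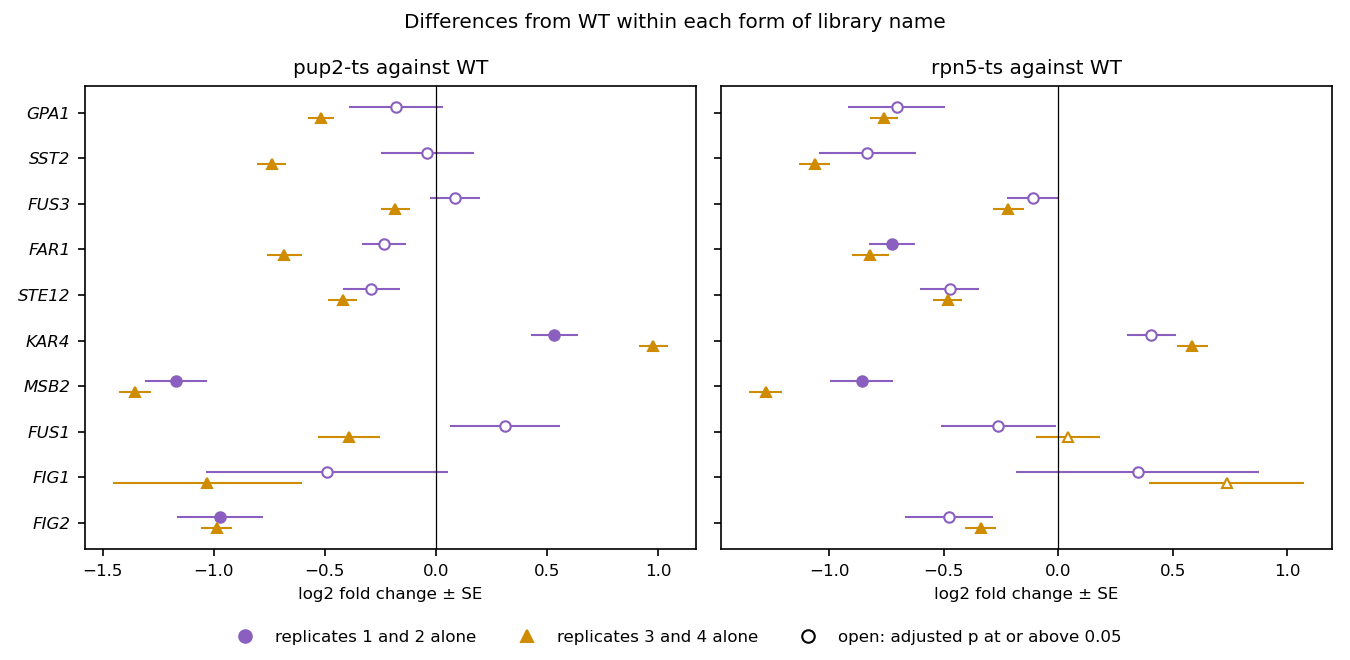
Log2 fold change against WT of each of the 10 genes within replicates 1 and 2 (purple circles) and within replicates 3 and 4 (orange triangles), for pup2-ts (left) and rpn5-ts (right), with SE. In pup2-ts the SST2, FAR1 and GPA1 points lie nearer 0 in replicates 1 and 2, and the FIG2 points lie together.

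Other genes of the pathway were counted by list, beside 15.4% of all genes called in pup2-ts (6.65% lower) and 13.7% in rpn5-ts (5.4% lower). Of 12 genes of the receptor, G protein and cascade, 1 rose and 1 fell in each mutant, a share near that over all genes, and the medians were −0.10 in pup2-ts and −0.09 in rpn5-ts. The gene that rose was STE11, the kinase at the head of the MAP kinase cascade, at 44.9 to 54.3 CPM in WT, 66.1 to 99.3 in pup2-ts and 72.3 to 84.0 in rpn5-ts (log2 fold changes 0.78, adjusted p = 0.0026, and 0.69, adjusted p = 0.0067). The gene that fell was KSS1, the MAP kinase of the filamentous branch, from 56.7 to 64.3 CPM in WT to 28.5 to 41.0 and 28.7 to 37.2 (−0.80, adjusted p = 0.0020, and −0.90, adjusted p = 0.0013). Neither gene's mutant libraries overlapped WT. Without the library labelled rpn5-ts replicate 1, 2 genes of the list were lower in rpn5-ts. With the replicate block, 3 were higher and 3 lower in pup2-ts, beside 38.5% of all genes, and 2 higher and 4 lower in rpn5-ts, beside 40.6%.

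Of 7 filamentous growth genes tested, 4 fell in pup2-ts, where 6.65% of all genes were lower (TEC1 −1.26, adjusted p = 9.4e-05; KSS1; SHO1 −0.46, 0.012; PGU1 −1.55, 0.014) and 3 in rpn5-ts, where 5.4% were lower (TEC1 −0.93, 0.0010; KSS1; SHO1 −0.37, 0.039), with medians of −0.71 and −0.73. TEC1, the Ste12 partner of that branch, stood at 42.5 to 60.6 CPM in WT, 20.3 to 21.7 in pup2-ts and 21.0 to 29.6 in rpn5-ts. The rpn5-ts call of SHO1, a membrane sensor that acts with Msb2, was lost when any 1 of 8 libraries was left out, with adjusted p up to 0.099. The library labelled rpn5-ts replicate 1 was among these 8, with an adjusted p of 0.053 without it. PGU1 encodes a secreted pectin-degrading enzyme. TEC1 and KSS1 are each counted in a pair of lists. With the block, 0 were higher and 5 lower in pup2-ts, and 1 higher and 5 lower in rpn5-ts. That fit called 38.5% and 40.6% of all genes in either direction.

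Among 8 transcription factors and negative regulators, TEC1 alone was called lower in pup2-ts. In rpn5-ts, TEC1 and the MAP kinase phosphatase gene MSG5 (−0.49, adjusted p = 0.025) were called lower. The log2 fold change was negative for all 8 in each mutant, with medians of −0.38 and −0.48, beside −0.02 over all genes. With the block, 5 of the 8 were lower in pup2-ts and 6 in rpn5-ts, beside 38.5% and 40.6% of all genes called. Of 18 other pheromone-induced genes tested, 3 fell in pup2-ts, namely AFR1 (−0.62, 0.011) and FUS2 (−0.72, 0.013) of the mating projection and cell fusion, and the a-specific ASG7 (−0.53, 0.049). In rpn5-ts 5 fell, namely AFR1 (−0.67, 0.0084), FUS2 (−0.73, 0.014) and the membrane protein genes PRM5 (−1.003, 0.0074), PRM4 (−1.23, 0.026) and PRM1 (−0.85, 0.038). None rose, and the median was −0.25 in each mutant. These 3 and 5 of 18 stand beside 15.4% and 13.7% of all genes called, and 6.65% and 5.4% called lower. With the block, 2 were higher and 7 lower in pup2-ts, beside 38.5% of genes, and 1 higher and 8 lower in rpn5-ts, beside 40.6%. The calls of MSG5, PRM1, PRM4 and ASG7 were each lost when any 1 of 4 to 11 of the libraries was left out, with adjusted p up to 0.13 for ASG7, 0.12 for PRM1, 0.076 for MSG5 and 0.073 for PRM4.

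Genes of the M/G1 boundary were counted because FAR1 transcription peaks near it. Of 17 such genes, 0 were called in pup2-ts, beside 15.4% of all genes, and 5 fell in rpn5-ts, beside 13.7% called and 5.4% lower. With the block, 1 was higher and 2 lower in pup2-ts, and 2 higher and 7 lower in rpn5-ts. Over all genes the block called 38.5% and 40.6% in either direction. The 5 were the chitinase gene CTS1 (log2 fold change −1.20, adjusted p = 0.0090), the cell wall gene SCW11 (−0.88, 0.0079), the daughter-cell genes DSE1 (−1.17, 0.023) and DSE2 (−1.24, 0.010), and the mitotic exit regulator AMN1 (−0.99, 0.013). The DSE1 call was lost when any 1 of 4 libraries was left out, with adjusted p up to 0.071. Leaving out the library labelled rpn5-ts replicate 1 kept all 5 calls and added 2 called higher, with the median of the list moving from −0.23 to −0.10. It also kept the calls of STE11, KSS1, TEC1, MSG5, AFR1, FUS2 and the PRM genes in rpn5-ts. Between the mutants 0 were called, and 4 were lower in rpn5-ts without the library labelled rpn5-ts replicate 1. The a-cell markers also moved. MFA1 (−1.11, adjusted p = 0.0038), STE6 (−0.54, 0.011) and AGA2 (−0.72, 0.025) fell in pup2-ts, and MFA1 (−1.65, 4.1e-04), MFA2 (−1.05, 0.032) and STE6 (−0.40, 0.047) in rpn5-ts, in strains whose cassette carries an MFA1 promoter. Of the alpha-cell markers, STE3 was higher in rpn5-ts (1.01, 0.022) and SAG1 lower in pup2-ts (−0.46, 0.018). Leaving out single libraries, the AGA2 call was lost for any 1 of 6 (adjusted p up to 0.064), MFA2 for 5 (0.098), STE6 in rpn5-ts for 9, the library labelled rpn5-ts replicate 1 among them (0.11), STE3 for 4 (0.066) and SAG1 for 2 (0.061). With the block, all 6 a-cell markers were lower in each mutant, beside 38.5% and 40.6% of all genes called in either direction. The part of cell-cycle position, of cell type or of the cassette in the levels of the 10 genes was not tested.

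The count table also holds annotated units on the strand opposite the genes, and 12 of them overlap 1 of the 10. Of these, 5 fell in each mutant against WT, beside 20.8% of all features called in pup2-ts and 14.6% in rpn5-ts, with 10.1% and 6.04% lower. Of features that are not protein-coding genes, 15.6% and 8.39% were lower. Between the mutants 0 units were called, beside 0.0342% of features. The 5 units were the noncoding CUT460 at KAR4 and 4 units at FAR1, which cover 95.5% to 97.8% of that gene and share the same reads, so that they stand for 1 transcribed region.

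At FAR1, the opposite-strand unit SUT204 (chrX:123800-126464, plus strand) stood at 49.2, 35.7, 28.5 and 33.04 CPM in WT, scaled over all annotated features. It stood at 19.6, 16.3, 11.7 and 12.6 CPM in pup2-ts and at 16.8, 19.2, 17.2 and 16.8 in rpn5-ts, all below WT. The log2 fold change was −1.28 ± 0.19 in pup2-ts (adjusted p = 7.3e-04) and −1.06 ± 0.19 in rpn5-ts (adjusted p = 0.0035), and −1.04 (adjusted p = 0.0087) without the library labelled rpn5-ts replicate 1. Both strands of the FAR1 locus were thus lower in rpn5-ts, while in pup2-ts the FAR1 strand itself did not pass the test. As a share of FAR1 counts, SUT204 counts were 47.7% ± 13.7 in WT, beside 23.7% ± 1.81 for pup2-ts and 36.8% ± 3.63 for rpn5-ts (SD, n = 4), a description with no test. For scale, the unit opposite GPA1 held 0.521% of the read density of GPA1 in WT, so that carry-over of reads from the other strand was small at that locus. CUT460 was low, at 0.777 to 1.80 CPM in WT, 0.298 to 0.721 in pup2-ts and 0.483 to 0.766 in rpn5-ts, with −1.14 ± 0.31 (adjusted p = 0.020) and −1.12 ± 0.31 (adjusted p = 0.031), the latter −1.29 (adjusted p = 0.030) with the library labelled rpn5-ts replicate 1 left out. Its pup2-ts call was lost without WT replicate 2 or pup2-ts replicate 4 (adjusted p up to 0.066) and in replicates 1 and 2 alone (0.17). Its rpn5-ts call was lost in limma-voom (adjusted p = 0.0504) and without any 1 of 6 single libraries, with adjusted p up to 0.094.

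**Figure D5:**
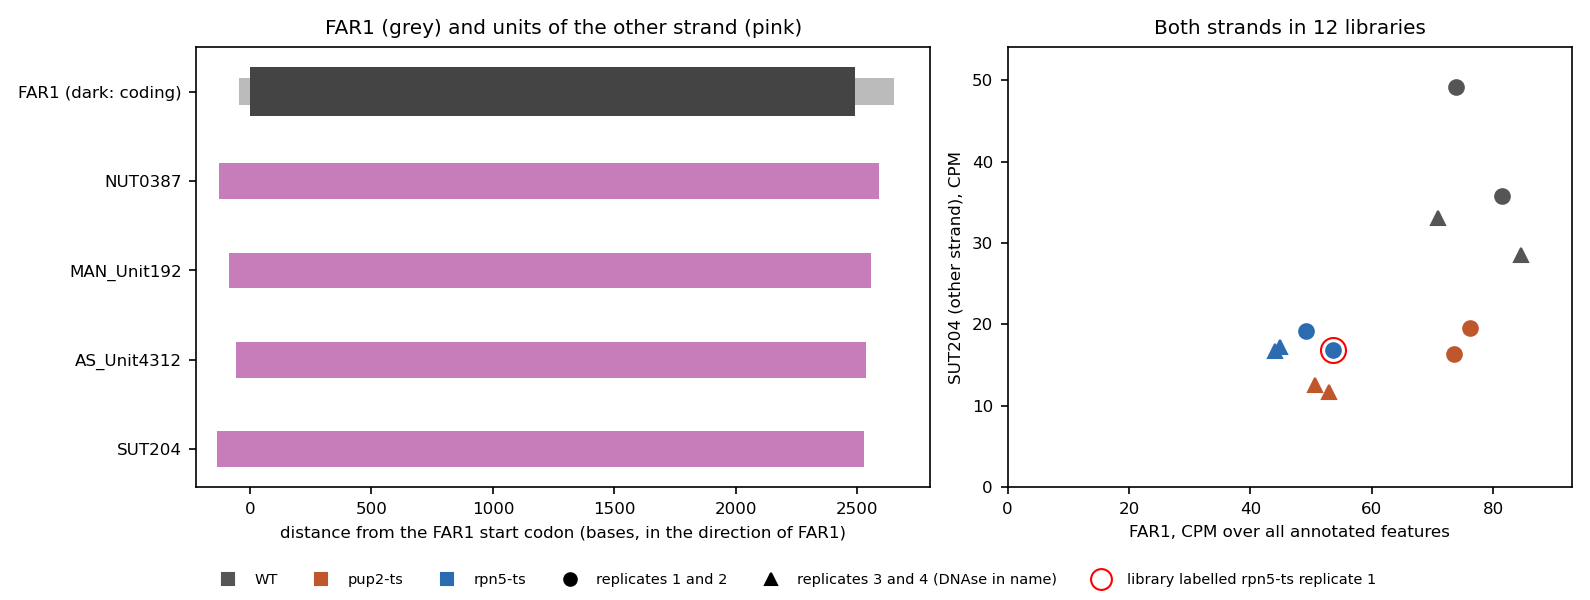
Left, FAR1 and the 4 opposite-strand units that overlap it, by distance from the FAR1 start codon in bases; right, CPM of FAR1 (x axis) and SUT204 (y axis) in each library, scaled over all features, by group. All mutant libraries lie below WT on the SUT204 axis.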

How the data were processed

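The deposited values are raw counts of reads per feature in 12 libraries of polyadenylated yeast RNA. Per the labels, hot acid phenol was used for extraction, followed by DNAse. The submitters' processing notes name STAR 2.5.2b, featureCounts of Subread 1.5.1 and the build sacCer3. The counting of reads that match several places or overlapping features is not given in the sources used here. Of 12768 features, 5585 matched protein-coding genes of R64.

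The tests used edgeR 4.0.16 under R 4.3.3. Genes were filtered by filterByExpr and scaled by TMM, the 3 groups were fitted together, and the two-sided quasi-likelihood F test with robust estimation was applied. Adjustment was by Benjamini-Hochberg over 5560 genes, with a threshold of 0.05. Standard errors were derived from the log2 fold change and its F value. CPM values are TMM scaled. Opposite-strand units were tested in a fit over all annotated features. The alternatives tried were DESeq2 1.42.0, limma-voom 3.58.1, size factors by upper quartile or by relative log expression, other filters, a replicate block, the form of name as a term, each pair of replicates alone, and each library left out. The test was checked on simulated counts that held no effect of replicate or form of name. That check therefore cannot speak for data with such a split. The sequence before STE12 is not reported here.

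All 10 genes are named. From each other list up to 4 called genes with the lowest adjusted p are named, or all where at most 5 were called, and marker genes as checks. The 10 genes and the lists were chosen with earlier results of these data known. Same-numbered libraries deviated together (12 correlations of 0.138 to 0.780, all above the bound of 0.1), but they also share the form of name. Only 6 of 12 libraries were closest to their own number. The correlations thus follow the form of name and do not show a pairing by number beyond it. Within each group no library was a copy of another (chi-square per degree of freedom 7.29 to 746). Libraries of different groups were not compared in this way. Gene totals of 18.5 to 60.6 (in 1e6 counts) set the counting precision. Each p-value sets a difference between groups against the spread between these libraries. In the fit by group alone that spread takes in any difference between the forms of name.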

Additional observations from a re-analysis of the deposited data

Results flagged for a closer look

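In 4 of 36 groups of 4 libraries, 1 library stood apart from the other 3 by Dixon's test at its 95% critical value, and chance alone gives about 1 in 20. FIG2 was lowest in WT replicate 2 at 43.1 CPM, against 57.6 to 58.7 in the other WT libraries. SST2 was highest in the library labelled rpn5-ts replicate 1 at 82.4 CPM, against 49.4 to 53.5 in the rest of its group, and GPA1 was highest in the same library at 93.8 CPM, against 57.2 to 61.7. That library also held LYS2 and MET17 reads that its labelled genotype does not call for, and whether this bears on the levels of SST2 and GPA1 was not tested. CUT460, on the strand opposite KAR4, was lowest in pup2-ts replicate 4 at 0.298 CPM.

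The pup2-ts difference from WT at KAR4 was larger in replicates 3 and 4 than in replicates 1 and 2, by 0.44 on the log2 scale (edgeR interaction term, adjusted p = 0.040). The call was lost when any 1 of 8 single libraries was left out, with adjusted p up to 0.15.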

How the results depend on the processing

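Of the 10 genes, 3 were called in pup2-ts against WT, and 5 with DESeq2, 5 with the replicate block, 6 with the form of name as a term, 10 in replicates 3 and 4 alone, and 2 to 4 with 1 library left out. In rpn5-ts against WT 5 were called, and 2 in replicates 1 and 2 alone, 8 in replicates 3 and 4 alone, 7 with the block, and 2 to 5 with 1 library left out. Between the mutants 0 were called, and 1 with the form of name as a term, 6 in replicates 3 and 4 alone, and 0 to 1 with 1 library left out. The replicate block without the library labelled rpn5-ts replicate 1, chosen after seeing the data, gave 6, 8 and 2. The count for the form of name was 8, beside 3511 of all genes, and 5 to 7 with 1 library left out, beside 3232 to 3764. The test of a pup2-ts difference between forms gave 1, beside 523 genes. With DESeq2 it gave 2, beside 863, and with 1 library left out 0 to 5, beside 34 to 1800. That of rpn5-ts gave 0, beside 93 genes, and 0 to 1 with 1 library left out, beside 3 to 1299. Opposite-strand units called with 1 library left out were 4 to 5 in pup2-ts, beside 1639 to 2495 of all features. In rpn5-ts they were 4 to 6, beside 931 to 1818. Between the mutants 0 units were called with 1 left out, beside 4 to 41 features. In replicates 3 and 4 alone 4 were called, beside 3203 of 11376 features. The block without the library labelled rpn5-ts replicate 1 also called 4, beside 672 of 11780 features. SUT204 was among them in both fits, and the units at FAR1 share the same reads. Over all genes, 855, 760 and 2 were called in the 3 comparisons, against 2142, 2256 and 7 with the block, 2371, 2474 and 32 with the form as a term, 1226, 1139 and 27 with DESeq2, and 872, 938 and 46 with the library labelled rpn5-ts replicate 1 left out. In replicates 3 and 4 alone, 3651, 3531 and 1896 of 5556 genes were called, and in replicates 1 and 2 alone 595, 698 and 1. With 1 library left out, 528 to 872, 446 to 938 and 2 to 46 of all genes were called in the 3 comparisons. The cause of these changes was not tested.

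The replicate block added calls at FAR1 and KAR4 in pup2-ts and at FIG2 and KAR4 in rpn5-ts, and changed no other call of the 10 genes in the 3 comparisons. Directions reversed for the following log2 values. In pup2-ts against WT, FUS1 was 0.31 and FUS3 0.087 in replicates 1 and 2 alone, 0.083 and 0.10 with all features scaled together, and −0.15 to 0.078 and −0.11 to 0.0044 with 1 library left out. FUS1 in rpn5-ts against WT was 0.043 in replicates 3 and 4 alone, 0.041 with the block without the library labelled rpn5-ts replicate 1, and −0.23 to 0.047 with 1 left out. FUS1 in rpn5-ts against pup2-ts was 0.43 (adjusted p = 0.037) in replicates 3 and 4 alone, 0.086 with that block, and −0.16 to 0.10 with 1 left out. CUT460 in rpn5-ts against pup2-ts was −0.00098 with relative log expression factors, −0.00069 with DESeq2, −0.081 in replicates 1 and 2 alone, −0.26 with that block, and −0.18 to 0.13 with 1 left out. Among differences between forms of name, FIG2 in pup2-ts was 0.00099 with the 10 CPM filter and −0.25 to 0.18 with 1 left out. STE12 in rpn5-ts was −0.031 with relative log expression, −0.031 with DESeq2, −0.0013 with limma-voom, −0.12 with all features, and −0.17 to 0.14 with 1 left out. For rpn5-ts, the ranges with 1 left out also crossed 0 for FIG2 (−0.083 to 0.36), FAR1 (−0.21 to 0.043), FUS3 (−0.28 to 0.052), FIG1 (−0.21 to 1.36), SST2 (−0.54 to 0.13) and GPA1 (−0.40 to 0.36). Before the start codon the response element was found at 4 genes as TGAAACA and at 1 as ATGAAACA. FIG1, with 8 to 64 counts, limits what these libraries can show.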
